A study of Homo sapiens with 17 samples.

Results

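Histone genes encode the proteins that wrap DNA into nucleosomes. The core histones H2A, H2B, H3 and H4 form the nucleosome and the linker histone H1 binds the DNA between nucleosomes. The genes were chosen by symbol alone, as all core, linker and variant histone genes for which the array had a probe set annotated to a single symbol. This gave 55 of 19775 genes and 73 of 41097 such probe sets. An antisense RNA whose symbol begins like that of a linker histone was left out of the 56 symbols matched. Of the 55 genes, 43 carry the symbols of histone cluster genes, 9 encode variants and 3 are pseudogenes. H2BC12L, counted among the 43, maps to chromosome 21, outside the clusters. There were 10 H1, 13 H2A, 14 H2B, 9 H3 and 9 H4 genes, and 42 of the 55 map to chromosome 6.

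The cells were IMR32, an established human neuroblastoma line, engineered so that doxycycline switches on NOTCH3IC, the intracellular and transcriptionally active portion of the receptor NOTCH3. Each of the clones, c6 and c8, is a single clonal line, all cells grew in DMEM with fetal calf serum, and all carried the inducible construct (its promoter is not named in the labels). RNA was hybridised once for every clone and time, giving 9 arrays of c6 (times 0, 4, 8, 12, 24, 48, 72, 96 and 120) and 8 of c8 (the same times up to 96), and the labels state no unit of time. Time 0 is the start (2 arrays), times 4, 8 and 12 are called early (6 arrays) and times 48, 72 and 96 late (6 arrays). No array of cells kept without doxycycline beyond time 0 was analysed here, so NOTCH3IC, doxycycline and time in culture cannot be told apart.

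Most histone genes are replication-dependent: they sit in clusters, are transcribed during S phase, when the DNA is copied, and give mRNAs that end in a stem-loop in place of a poly(A) tail. Variant histones such as H2A.Z, H2AX and H3.3 come from single genes outside the clusters and are made in part or wholly independently of replication, mostly as polyadenylated mRNAs. Some cluster genes also give polyadenylated mRNAs, which are known from differentiating or non-dividing cells. The labelling kit named in the labels primes from poly(A) tails, so mRNAs without a tail are poorly copied, and the intensities of cluster genes are read here with that limit. How much of each signal came from either form was not tested.

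The induction was visible on the arrays. HEY1, a direct target of Notch, had intensities of 30.0 and 71.4 at the start and between 2377 and 3314 on the late arrays (late minus start 5.53 ± 0.27 SE on the log2 scale, limma adjusted p = 1.1e-08). All 7 genes of a list for checking the induction rose. Among them was NOTCH3, part of which the construct itself encodes, and whether its probe set reads the construct was not tested. Of 11 tested neuroblastoma markers 2 rose and 2 fell, and their summed intensity was 14030 to 14240 at the start and 10740 to 12580 on the late arrays. Of 10 tested smooth muscle and pericyte markers 7 rose, NOTCH3 among them. The 11 measured ones summed to 275.5 to 509 at the start and 4551 to 14720 late. Of 7 tested fibroblast markers 4 rose and 1 fell, and the 9 measured ones summed to 998 to 1351 at the start and 4832 to 8647 late. None of the 2 endothelial and 3 immune markers tested passed. Fewer cells of a type and less RNA per cell cannot be told apart in bulk RNA, and the part of these shifts in the histone values was not tested.

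Promoter sequence is shown for the 5 cluster genes of the H2A and H2B classes that changed over time, since these genes shared 1 time profile in both clones. The windows hold the 250 bases before the RefSeq start of each gene on GRCh38.p14, read on the strand of the gene, at chr6:26157871-26158120 (plus strand), chr1:149886683-149886932 (minus), chr6:27146859-27147108 (minus), chr6:26123922-26124171 (plus) and chr1:228457874-228458123 (minus). Capitals mark exact matches, on either strand, to the CCAAT box CCAAT, the TATA box TATAAA, the octamer ATTTGCAT and the RBPJ motif GTGGGAA. In the H2BC12 window a pair of TATA matches on opposite strands overlap.
H2BC5: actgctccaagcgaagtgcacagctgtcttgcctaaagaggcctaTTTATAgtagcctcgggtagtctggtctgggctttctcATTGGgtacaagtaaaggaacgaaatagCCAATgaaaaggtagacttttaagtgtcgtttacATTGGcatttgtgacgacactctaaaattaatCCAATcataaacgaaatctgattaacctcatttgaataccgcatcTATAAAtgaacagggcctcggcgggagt
H2BC21: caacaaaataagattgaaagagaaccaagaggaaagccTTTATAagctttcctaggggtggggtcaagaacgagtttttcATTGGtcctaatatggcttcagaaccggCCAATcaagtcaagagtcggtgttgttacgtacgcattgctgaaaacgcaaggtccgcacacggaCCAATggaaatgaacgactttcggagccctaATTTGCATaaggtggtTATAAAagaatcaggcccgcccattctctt
H2BC12: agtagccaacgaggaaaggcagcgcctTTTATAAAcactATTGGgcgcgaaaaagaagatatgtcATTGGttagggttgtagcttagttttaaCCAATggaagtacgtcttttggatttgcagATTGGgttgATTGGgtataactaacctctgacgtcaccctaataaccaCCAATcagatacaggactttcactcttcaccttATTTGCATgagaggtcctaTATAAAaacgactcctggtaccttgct
H2AC6: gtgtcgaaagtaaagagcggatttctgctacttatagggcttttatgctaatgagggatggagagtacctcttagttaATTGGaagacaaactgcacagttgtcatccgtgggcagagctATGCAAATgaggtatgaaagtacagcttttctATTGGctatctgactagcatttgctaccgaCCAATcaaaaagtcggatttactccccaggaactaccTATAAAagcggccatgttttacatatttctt
H2AC25: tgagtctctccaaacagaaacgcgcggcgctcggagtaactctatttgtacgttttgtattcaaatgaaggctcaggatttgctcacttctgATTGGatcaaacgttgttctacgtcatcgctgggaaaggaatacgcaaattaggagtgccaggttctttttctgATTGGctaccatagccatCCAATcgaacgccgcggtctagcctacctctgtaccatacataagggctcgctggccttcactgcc

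All 5 windows held the CCAAT box, in 3 copies in H2BC21, H2AC6 and H2AC25, 4 in H2BC5 and 6 in H2BC12. The TATA box was found in 4 of them, with no exact match in H2AC25. The octamer, which is read by POU factors and is known from H2B promoters, was found in H2BC21, H2BC12 and H2AC6 but had no exact match in the windows of H2BC5 or H2AC25. None of the 5 held GTGGGAA, a sequence bound by RBPJ, the DNA-binding partner of NOTCH3IC. Only this exact form was searched, so other forms of the site were not looked for.

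The table of promoters held 49 of the 55 histone genes. The CCAAT box was present in 43 of these 49 windows (87.8%), against 33.0% of all 27305 windows of the same length. It was present in 12 of 12 H2A, 13 of 13 H2B, 8 of 8 H3 and 8 of 9 H1 windows, but in 2 of 7 H4 windows. The octamer was present in 10 of 13 H2B and 6 of 12 H2A windows and in no H1, H3 or H4 window, against 1.66% of all windows. The TATA box was present in 31 of 49 (63.3%), against 11.1% of all, and the RBPJ motif in 2 of 49 (4.08%), against 5.46% of all. These are matches of letters, not sites shown to be bound. The windows of 4 pairs of these H2A and H2B genes overlap, so a match in the shared bases was counted for both genes.

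H2A and H2B genes often lie head to head, with opposite orientation and a shared promoter. The windows of 6 of the 12 H2A and 8 of the 13 H2B genes overlapped that of a histone gene on the other strand, whereas none of the 9 H1, 8 H3 and 7 H4 windows did. H2AC6 shares 245 bases of its window with H2BC4, H2BC21 shares 235 with H2AC20, and H2AC25 shares 229 with H2BC26.

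The filter, a mean log2(intensity + 16) of at least 4.68 over the 17 arrays, was passed by 33 histone genes, 27 with cluster-gene symbols and 6 variants. By class these were 6 H1, 10 H2A, 6 H2B, 5 H3 and 6 H4 genes. The other 22, among them the 3 pseudogenes, had medians between 1.2 and 9.5 and at most 26.1 on any array. No detection calls were used here, so whether a dim gene lay above background is unknown. Since a gene can pass through the arrays on which it is high, counts below refer to the tested 33 and not to all 55.

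In the late phase 4 of the 33 tested histone genes were higher than at the start and none was lower, by limma with Benjamini-Hochberg adjustment over all 13675 genes tested. They were H2BC5, H2BC21, H2AC6 and H2AC25, all cluster genes of the H2A and H2B classes. The probe sets of H2BC5, H2BC21 and H2AC6 carry a suffix of sets that can read related transcripts, as described below. Among all genes tested 5.21% passed as higher and 1.73% as lower, against 12.1% and 0% of the histone genes. The median change of the 33 was 0.26 on the log2 scale, against 0.02 for all genes, with 25 above 0 and 8 below. Median changes were 0.72 for H2B, 0.31 for H2A, 0.21 for H4, 0.09 for H1 and -0.31 for H3 genes. With quantile normalization or median centring of the arrays 2 of the 33 histone genes, H2BC5 and H2BC21, passed as higher and 1, H3C8, as lower. Of all 13669 genes tested with quantile normalization 643 passed as higher and 215 as lower. With median centring 523 of 13675 passed as higher and 290 as lower, so the histone counts then lay nearer to the shares of all genes.

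**Figure D1:**
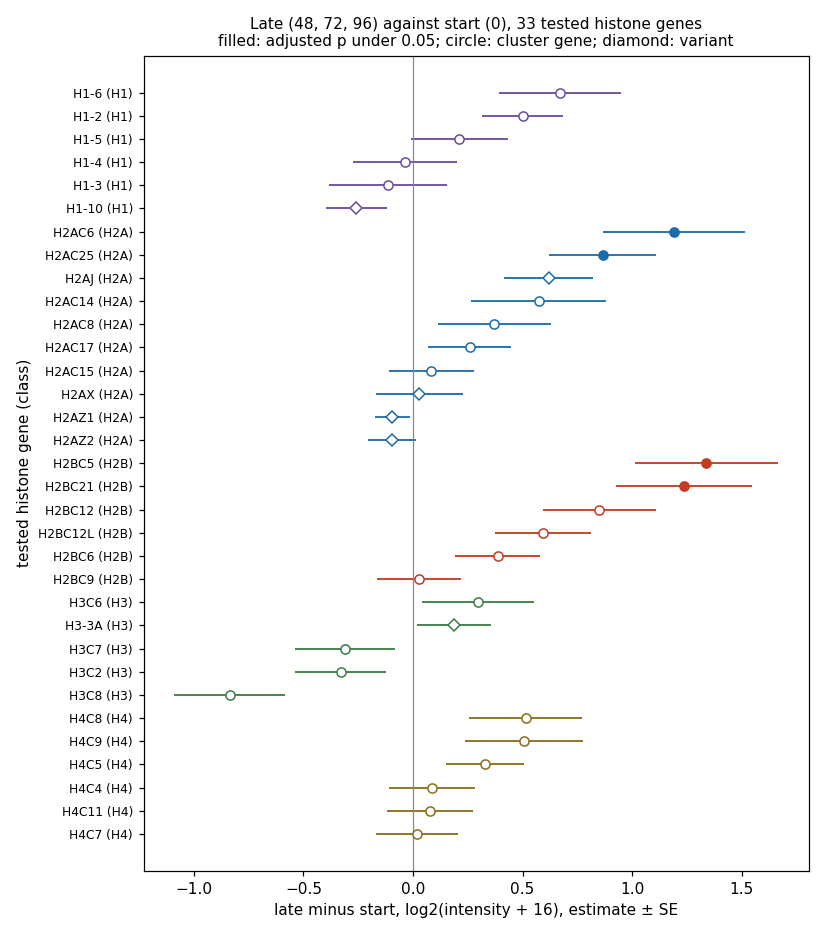
Late minus start for the 33 tested histone genes on the log2(intensity + 16) scale, with the limma estimate and its standard error; classes are coloured, circles are cluster genes, diamonds are variants, and filled symbols passed an adjusted p of 0.05. The 4 filled points are H2BC5, H2BC21, H2AC6 and H2AC25, and the H3 gene H3C8 has the lowest estimate, -0.84.

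The count rested on single arrays. It was 0 without the time-0 array of c6 or that of c8, 1 without time 48 or 96 of c6, 2 without time 72 of c6 or time 96 of c8, and 7 without time 12 of either clone. The 3 genes added in the last case were H2BC12 and H2BC12L as higher and H3C8 as lower. Without a term for the clone it was 0, with unchanged estimates. The shares of all genes that passed under these settings are not printed here, so the swings are not read as particular to histone genes.

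H2BC5, a replication-dependent H2B gene formerly called HIST1H2BD, had intensities of 46.1, 85.7, 66.7, 76.8, 365, 146.5, 135.0, 184 and 168 in c6, in order of time from 0 to 120. In c8 they were 39.9, 38.2, 76.9, 247, 177, 113, 87.8 and 150.5, from 0 to 96. Both start arrays lay below all 6 late arrays, while the highest array of each clone was neither a start nor a late one: time 24 in c6 and time 12 in c8. The late mean was 155 ± 25.8 (SD, n = 3) in c6 and 117 ± 31.5 (SD, n = 3) in c8. Late minus start was 1.34 ± 0.33 (SE), or 2.53-fold on the log2(intensity + 16) scale, with an adjusted p of 0.0196. A second H2BC5 probe set was also highest on those arrays, at 274 and 234, but its late change of 0.62 ± 0.37 did not pass (adjusted p = 0.455 with probe sets as features).

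H2BC21, formerly HIST2H2BE, is the H2B gene of a chromosome 1 cluster known to give a polyadenylated transcript. In c6 it measured 45.0, 46.5, 78.1, 51.7, 235, 127, 123, 148 and 140.1. In c8 it measured 40.2, 39.6, 63.0, 215, 154, 93.8, 113 and 133.5. The profile again had its highest value at time 24 in c6 and at time 12 in c8, and the late arrays, from 93.8 to 148, did not overlap the start. The late change was 1.24 ± 0.31 (2.36-fold, adjusted p = 0.0227).

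H2AC6, formerly HIST1H2AC, is an H2A gene of the large chromosome 6 cluster. Its c6 intensities were 21.5, 15.7, 32.4, 37.3, 199.7, 68.4, 66.1, 75.3 and 109.8. Its c8 intensities were 25.8, 24.0, 32.4, 158, 88.0, 61.3, 80.9 and 99.8. Until time 12 in c6 and time 8 in c8 no array exceeded 37.3, and from the next time on no array fell below 61.3. The late change was 1.19 ± 0.32 (2.29-fold, adjusted p = 0.0355).

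H2AC25, formerly HIST3H2A, lies with H2BC26 in the small cluster at the end of chromosome 1. It measured 81.9, 94.2, 182, 168, 423, 184, 169, 230.0 and 200.2 in c6. It measured 115, 84.4, 159, 385, 248.5, 154, 215 and 203 in c8. Here the early arrays at times 8 and 12 of c6 and time 8 of c8 were already above both start arrays. The late change was 0.87 ± 0.24 (1.82-fold, adjusted p = 0.0444). A second probe set, which stayed between 1.2 and 16.9, had an estimate of 0.26 ± 0.22 (limma adjusted p = 0.632 with probe sets as features). It was too dim to check the brighter one.

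**Figure D2:**
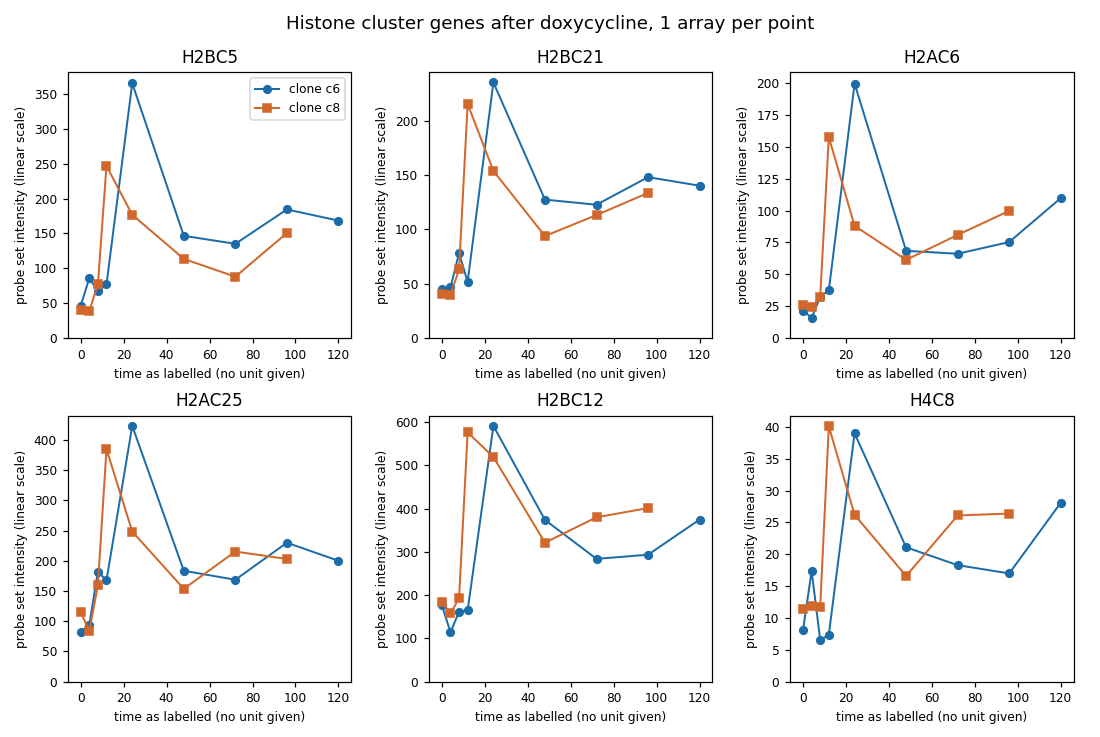
Probe set intensity (linear axis from 0) against time as labelled for 5 H2A and H2B cluster genes and the H4 gene H4C8, with 1 point per array, circles for clone c6 and squares for clone c8. In each panel c6 is highest at time 24 and c8 at time 12; H2BC12, for example, reaches 591 and 576.5 there.

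H2BC12, formerly HIST1H2BK, had the same profile but a smaller late change. Its intensities in c6 were 177, 114, 162, 165, 591, 374, 284, 294 and 375. Those in c8 were 185, 158, 193, 576.5, 519.5, 321.5, 380.2 and 401. The start and late arrays did not overlap, and all 6 late arrays were above the time 0 of their clone, but the estimate of 0.85 ± 0.26 missed the threshold (adjusted p = 0.0635). Its change over all times did pass, as described below.

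The remaining H2B genes differed among themselves. H2BC12L, the H2B gene on chromosome 21, was above its own start on 6 of 6 late arrays (0.59 ± 0.22, adjusted p = 0.139), with its highest values, 207 and 210.3, again at time 24 of c6 and time 12 of c8. In c6 its other arrays lay between 107.7 and 173, and in c8 time 24 followed at 205 with the others between 85.9 and 179. H2BC6 was likewise above its start on 6 of 6 late arrays (0.39 ± 0.19, adjusted p = 0.306). H2BC9 had an estimate of 0.03 ± 0.19 and was above its start on 3 of 6. Its probe set, like those of several histone genes, carries a suffix of sets that can read related transcripts. Among these are the probe sets of H2BC5, H2BC21 and H2AC6, which passed late against start, and of H2BC12L and H2BC6. The coding regions of H2B genes are close copies of each other, so values of single H2B genes are uncertain to that extent. The limit of the suffix holds for H2AC6 as well.

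Of the other H2A cluster genes none passed. H2AC14 had a late estimate of 0.57 ± 0.31 (adjusted p = 0.350), and H2AC8 of 0.37 ± 0.26 (adjusted p = 0.505). H2AC17 and H2AC15 had estimates of 0.26 and 0.08. All 6 tested H2A cluster genes had estimates above 0.

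Among the H4 genes, most of which encode 1 and the same protein from many loci, H4C8 showed the time profile of the H2A and H2B genes at low intensity. Formerly HIST1H4H, it measured 8.1, 17.4, 6.5, 7.4, 39.0, 21.1, 18.3, 17 and 28.1 in c6. In c8 it measured 11.4, 11.9, 11.8, 40.1, 26.2, 16.6, 26.1 and 26.4. The start and late arrays did not overlap, but the change of 0.51 ± 0.26 did not pass (adjusted p = 0.309). A second H4C8 probe set was also highest at time 24 of c6 and time 12 of c8, at 45.7 and 22.5. Its start and late arrays overlapped, with a late change of 0.18 ± 0.20 (limma adjusted p = 0.741 with probe sets as features). The other H4 genes had late estimates between 0.02 (H4C7) and 0.51 (H4C9), and none passed. With quantile normalization or median centring 5 of the 6 H4 estimates were above 0, in place of 6. The brightest H4 signal came from a probe set that lists 14 H4 genes and was kept out. Its mean late change was -0.56, as given under other observations.

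The H3 genes had the lowest class median. H3C8 measured 35.4, 35.3, 38.8, 28.7, 22.6, 2.6, 15.1, 22.4 and 3.5 in c6. In c8 it measured 25.2, 22.1, 17, 2.2, 8.1, 2.1, 20.9 and 3.7. All 6 late arrays were below both start arrays, with a change of -0.84 ± 0.25 that did not pass (adjusted p = 0.0643). H3C2 (-0.33 ± 0.21, adjusted p = 0.441) was below its own start on all 6 late arrays and H3C7 (-0.31 ± 0.23, adjusted p = 0.532) on 4, whereas H3C6 had an estimate of 0.30 ± 0.26. H3C6 had its highest values, 47.7 and 42.8, at time 24 of c6 and time 12 of c8. Its other probe set was highest at 43.2 at time 12 of c8 but at 31.2 at time 4 in c6. All of these are dim probe sets, at most 52.4 on any array, so their folds depend on the added 16.

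None of the 6 tested linker histone genes passed late against start. H1-2, a cluster H1 gene known to be widely expressed, measured 69.9, 108, 72.9, 67.1, 93.0, 85.5, 86.9, 95 and 111 in c6. In c8 it measured 43.9, 67.0, 55.9, 88.2, 57.3, 57.2, 103 and 91.8. Each late array was above the time 0 of its own clone, but the late arrays of c8 reached down to 57.2 and overlapped the start of c6. The estimate was 0.50 ± 0.19 (adjusted p = 0.144). H1-3 and H1-4 had estimates of -0.11 and -0.04, H1-5 of 0.21, and the testis H1 gene H1-6, at 1.9 on both start arrays, of 0.67 ± 0.28 (adjusted p = 0.203).

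The variant genes, whose transcription is not tied to the clusters, had a median late change of -0.03, and none of the 6 tested passed. H2AZ1, which encodes the main H2A.Z protein placed at promoters, lay between 5597 and 5787 at the start and between 4852.5 and 5801 late, with overlap (-0.10 ± 0.08, adjusted p = 0.593). H2AZ2, the second H2A.Z gene, lay between 1433 and 1616 at the start and between 1098 and 1684 late (-0.10 ± 0.11, adjusted p = 0.719). A further 3 probe sets of H2AZ2 had late estimates of -0.32, -0.26 and -0.15, and none of them passed with probe sets as features. H2AX encodes the variant that is phosphorylated at DNA breaks, and its late change was 0.03 ± 0.20 (adjusted p = 0.959). H3-3A, a gene for the replacement histone H3.3, had an estimate of 0.19 ± 0.17 (adjusted p = 0.627). Its probe set read 44.1 to 110.6. Over the times shared by the clones, 8 sets that list H3-3A beside other symbols read 659.1 to 10366.3. Their late changes ran from -0.33 to 0.08 on the log2 scale and were not tested. H2AJ, a replication-independent H2A known to be raised in senescent and some luminal epithelial cells, measured 5.5 and 6.2 at the start and 2.3 to 28.3 late, which overlapped (0.62 ± 0.20, adjusted p = 0.0892).

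**Figure D3:**
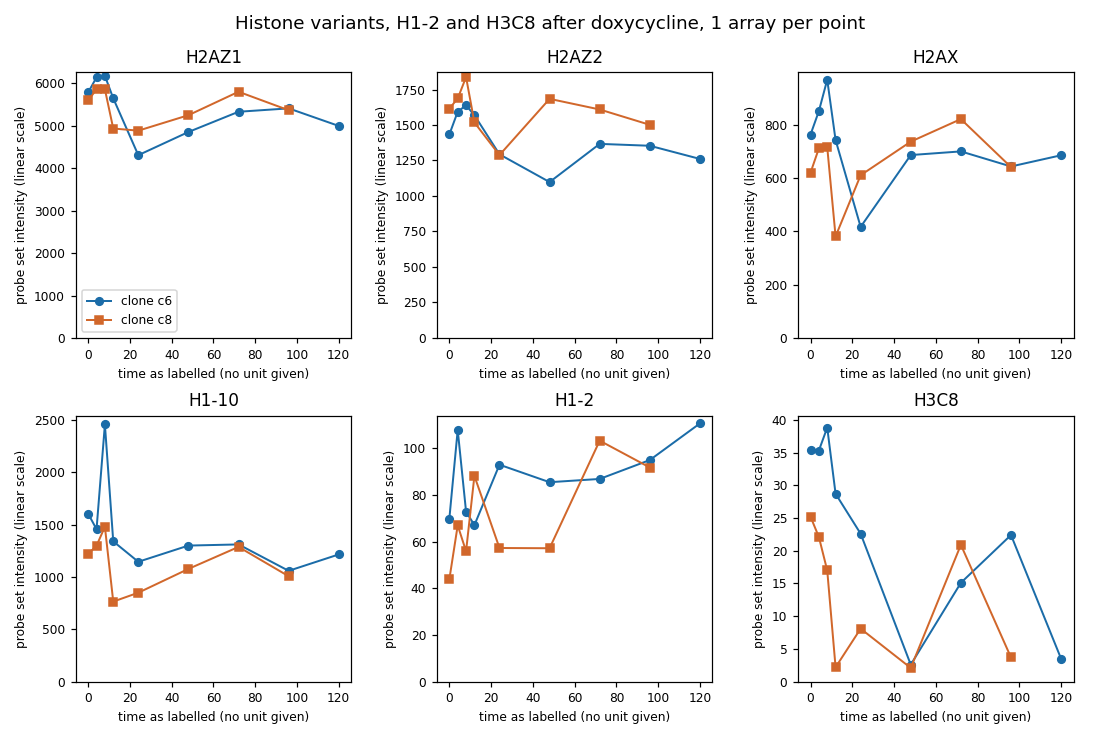
Probe set intensity (linear axis from 0) against time as labelled for the variants H2AZ1, H2AZ2, H2AX and H1-10 and for H1-2 and H3C8, with 1 point per array, circles for clone c6 and squares for clone c8. H2AX is lowest at 417 at time 24 in c6 and at 381 at time 12 in c8, the arrays on which the H2A and H2B cluster genes are highest.

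In the early phase no histone gene passed by limma against the start, where 2.01% of all genes tested did, and 5 of the 33 had an unadjusted p under 0.05. The smallest adjusted p was 0.0785, for H2AJ (0.74 ± 0.20), which was above its own start on 6 of 6 early arrays. A second H2AJ probe set that passed the filter had an early estimate of 0.05 ± 0.22 (limma adjusted p = 0.959 with probe sets as features) and a late one of 0.13 ± 0.22. H2BC5 (0.77 ± 0.33, adjusted p = 0.296) and H2AC25 (0.62 ± 0.24, adjusted p = 0.249) had early estimates with large errors. For both genes c8 had its highest value at time 12, and c6 later. The median was 0.24 against 0.03 for all genes. Without time 12 of c6 the count was 3, H2AC25, H2BC21 and H2BC5. The share of all genes under that setting is not printed here, so this is not read as particular to histone genes.

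Late against early, which leaves the start arrays aside, gave no histone gene past the threshold, while 5.18% of all genes tested passed and 5 of the 33 had an unadjusted p under 0.05. The estimates were 0.75 ± 0.23 for H2BC12 (adjusted p = 0.0823), 0.72 ± 0.28 for H2AC6 (adjusted p = 0.192) and 0.68 ± 0.26 for H2BC21 (adjusted p = 0.184). This count turned on 1 array: without time 12 of c8 it was 6, of which H2AC6, H2BC12, H2BC12L, H2BC21 and H2BC5 were higher late and H3C8 lower. In clone c6 alone it was 4, H2AC6, H2BC12, H2BC21 and H2BC5. The shares of all genes under these settings are not printed here, so the swings are not read as particular to histone genes.

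Over all times 6 of the 33 histone genes changed (18.2%), by the limma F test over the time terms, as did 6.61% of all genes tested. They were the 5 H2A and H2B genes shown by sequence, with adjusted p-values of 0.0123 for H2BC12, 0.0194 for H2AC25, 0.0197 for H2AC6, 0.0308 for H2BC5 and 0.0409 for H2BC21, and the variant H1-10 at 0.0243. H1-10 encodes the linker histone H1x. Its intensities were 1604, 1457, 2458, 1341, 1146, 1300.5, 1311, 1059 and 1216 in c6 and 1220, 1299, 1480.5, 765, 850.3, 1077.5, 1288 and 1007.5 in c8. It was highest at time 8 in both clones, and lowest at time 12 in c8. The counts that follow lack the shares of all genes under their settings, so they are not read as particular to histone genes. The count over time was 1 without time 0 of c6, 2 without time 4 of c6 or time 0 or 4 of c8, and 3 without time 8 of c6.

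The profile of these genes was described array by array, as a pattern noticed in the values and with no test. Against its own time 0, c6 had 7 of the 33 histone genes at least 2-fold higher at time 24, where 4.42% of all genes tested were, and none at time 12 (2.52% of all). Clone c8 had 8 at time 12 (3.67% of all) and 6 at time 24 (3.41% of all). With 1 array on each side these counts have no replicate check. H2AC25, H2AC6, H2BC12, H2BC21, H2BC5 and H4C8 were among them both at time 24 of c6 and at time 12 of c8. Of 27 tested cluster genes 9 had their highest value at both of these points, 5 of 6 H2B, 2 of 6 H2A, 1 of 4 H3, 1 of 6 H4 and 0 of 5 H1 genes, compared with 7.56% of all genes tested.

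On the same arrays the genes of the cell cycle lists were low. The median change of 34 S phase genes from the clone's own time 0 was -0.99 at time 24 of c6 and -0.79 at time 12 of c8, and that of 30 genes of G2 and mitosis was -1.02 and -0.68. The median of the 6 H2B cluster genes was 1.21 and 1.35 there. MKI67, a marker of dividing cells, was 653 and 573 at the start and 199.6 and 286.5 on these arrays. The S phase list summed to between 32310 and 35400 at the start, 19340 and 32070 on the early and 24610 and 32590 on the late arrays. H2AX was lowest on the same arrays, with 764, 852, 969.9, 743, 417, 687, 701, 644 and 686 in c6 and 620.5, 712, 717, 381, 611, 737, 822 and 642 in c8. The ratio of 3' to 5' signal of ACTB, a measure of RNA integrity, was 1.49 at time 24 of c6, the highest of c6 (1.22 to 1.49), and 1.62 at time 12 of c8, inside its range of 1.56 to 1.70. Neighbouring arrays differed from this picture. At time 12 of c6 the S phase median was already -0.72, with G2 and mitosis at 0.25 and H2B at 0.02. At time 24 of c8 the H2B median was still 1.26, with S phase at -0.39 and G2 and mitosis at -0.26. The part of the cell cycle shift or of RNA integrity in the histone values was not tested.

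**Figure D4:**
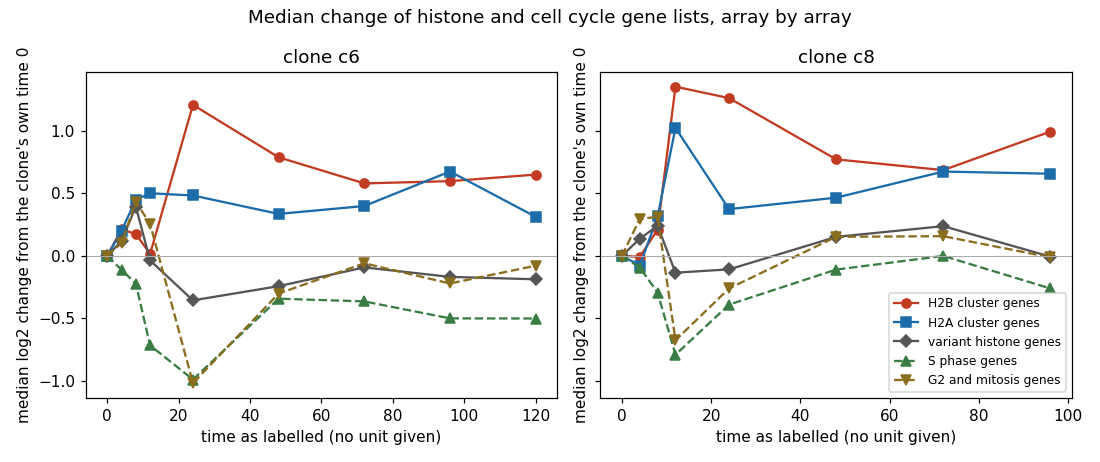
Median log2 change from the clone's own time 0 against time as labelled, in clone c6 (left) and clone c8 (right), for the 6 tested H2B and 6 H2A cluster genes, the 6 tested variants, 34 S phase genes and 30 genes of G2 and mitosis. At time 24 of c6 the H2B median is 1.21 and the S phase median -0.99; at time 12 of c8 they are 1.35 and -0.79.

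The lists were also set side by side from time 48 on. In c8 the S phase median was -0.11, 0.00 and -0.26 at times 48, 72 and 96, while the H2B cluster median was 0.77, 0.69 and 0.99. In c6 they were -0.34, -0.37 and -0.50, and 0.79, 0.58 and 0.60. Over the late phase 2 of 34 S phase genes fell against the start and none rose, with a list median of -0.26. Those were E2F1 (-0.67 ± 0.14, adjusted p = 0.00609) and CCNE2 (-0.59 ± 0.17, adjusted p = 0.0463), a cyclin of the entry into S phase. None of the 30 genes of G2 and mitosis passed late.

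The genes that make and process histone mRNA were set beside them. In the early phase 3 of 16 tested fell and none rose. SLBP, the protein that binds the stem-loop of replication-dependent histone mRNA, measured 1662 and 1815 at the start and 771.5 to 1387 early, with no overlap (-0.65 ± 0.11, adjusted p = 0.00638). The others were the cyclins CCNE2 (-1.15 ± 0.17, adjusted p = 0.00196) and CCNE1 (-0.60 ± 0.14, adjusted p = 0.0377), which activate histone transcription at the start of S phase. In the late phase CCNE2 alone of the 16 passed, and SLBP was at 1245 to 1842 (-0.27 ± 0.11, adjusted p = 0.206). None of 27 histone chaperones and import factors passed late or early. NASP, which binds free H3 and H4, had the smallest p of them late (-0.33 ± 0.10, adjusted p = 0.0670).

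The clones were compared last. The late minus early response of c8 differed from that of c6 for none of the 33 histone genes and for none of the 13675 genes (0%) by the limma interaction test, with an unadjusted p under 0.05 for 4 and 1193 of them. The level over the shared times differed for 3 of the 33 (9.09%), against 21.7% of all genes. The 3' to 5' ratio of ACTB was 1.22 to 1.49 on the c6 arrays and 1.56 to 1.70 on the c8 arrays, while that of GAPDH overlapped. The part of RNA integrity in the clone levels was not tested. H3-3A was higher in c8, at 68.9 to 111 against 44.1 to 88.7 in c6 (0.51 ± 0.10, adjusted p = 0.00295). This rests on 1 probe set: of 8 probe sets that list H3-3A beside other symbols, the mean over the shared times was higher in c8 for 2 and lower for 6, with differences of -0.27 to 0.24 on the log2 scale. H1-10 was lower in c8 (-0.36 ± 0.08, adjusted p = 0.00729), and so was H3C8 (-0.53 ± 0.16, adjusted p = 0.0250). The H3C8 call was lost without time 8, 12, 24 or 96 of either clone, with adjusted p-values of 0.0502 to 0.0726.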

How the data were processed

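Deposited values were probe set intensities on a linear scale from 17 arrays. MAS5 and GCOS, without versions, are named per the submitters' processing notes. From the values, each array had a 2% trimmed mean of 100.01. The scanner files were not used here, and no build is named for the probe annotation. The number of arrays limits the precision. The labels do not say whether times were separate cultures, so the spread behind the p-values may be technical.

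Each gene was its probe set of highest mean log2(intensity + 16), and 13675 of 19775 genes at or above the 40th percentile of all probe sets were tested with limma 3.58.1 in R 4.3.3 (lmFit, eBayes with intensity trend), Benjamini-Hochberg adjusted, with a threshold of 0.05. All times and the clone were terms of 1 fit, with 7 residual degrees of freedom. Late against early and the clone interaction used the 12 early and late arrays, and clone level the 16 arrays of shared times. No between-array normalization was added. The clone is a replicate block by its label; clone differences at pairs of times correlated between 0.13 and 0.49 across genes. No 2 arrays shared over 1.42% of values. The code was checked on simulated data.

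The histone genes and the other lists were chosen with earlier results of these data known. Named were all histone genes past a threshold, the 5 largest changes each way, genes fixed by name and, from other lists, up to 4 of smallest p; H2BC12L, H2BC6, H2BC9, the remaining H1, H2A, H3 and H4 estimates, MKI67 and the patterns by array were chosen after values were seen. A likeness rule among the choices was not applied, and 1 item is not reported here. The 28 probe sets that list several symbols with a histone gene were kept out. Promoter windows are RefSeq's on GRCh38.p14, the first listed for each gene. The settings varied were the pseudocount (1 or 64), the scaling (median centring or quantile normalization), the filter (none or the 60th percentile), the probe sets (their mean or all), the trend, the clone term, means of phases, single clones, single arrays left out and, added after seeing the data, time 24 of c6 and time 12 of c8 left out together.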

Additional observations from a re-analysis of the deposited data

Results flagged for a closer look

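Among the 6 early arrays, time 12 of c8 stood apart for 4 named histone genes. For H2AC6 it was at 158 and the other 5 were at 15.7 to 37.3, a gap of 0.695 of the range on the log2 scale. For H2BC12 it was at 576.5 against 114 to 193 (0.69), and for H2BC21 at 215 against 39.6 to 78.1 (0.631). For H2AX it was the lowest, at 381 against 712 to 969.9 (0.666). Among the late arrays time 48 of c8 was low for H1-2, at 57.2 against 85.5 to 103 (0.669). These 5 of 34 groups exceeded Dixon's 95% critical value. Chance flags about 1 in 20 groups of replicates. The arrays here are different times of 2 clones, and 4 of the flags fall on the same array. The number of flags therefore cannot be set against that rate.

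The brightest H2AX probe set lay on opposite sides of the start in the clones. All 3 late arrays were below time 0 in c6 (mean -0.17) and above it in c8 (mean 0.23), a difference of 0.40 on the log2 scale, which was not tested against the start. The other 2 probe sets that passed the filter showed this split only in part. One went in c6 from 32.0 at the start to 23.1, 39.9 and 39.2, and in c8 from 43.9 to 37.2, 62.3 and 56.8. The other went in c6 from 61.6 to 42.7, 40.7 and 47.7, and in c8 from 55.7 to 46, 74.1 and 68.3.

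A pair of probe sets that each list 2 H2A genes, and so name neither, were higher on all 6 late arrays than at the start. One was at 302 and 310.0 at the start and at 366 to 554 late (0.56), with 656.5 at time 24 of c6 and 734.5 at time 12 of c8. The other was at 137 and 143 at the start and 164 to 264 late (0.44), with 287 and 292.5 on those arrays. The rule for this flag asked for a rise and a late intensity of at least 100, so sets that fell could not be flagged.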

How the results depend on the processing

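The late estimates of H2BC5, H2BC21, H2AC6, H2AC25, H2BC12 and H1-2 were above 0 under all 31 alternatives run, while their calls were not stable. The count of histone genes called late against start, 4, was 2 with a pseudocount of 64, 0 without a filter, 2 with the mean of probe sets, 1 without a trend (H2AJ, which is not among the 4), 1 with phase means, 2 in c6 alone, 0 in c8 alone and 7 without time 24 of c6 and time 12 of c8. Without the replicate block the counts were 0 late against start and 0 over time. Leaving out 1 array gave 0 to 7 late against start, 0 to 3 early against start, 0 to 6 late against early, 1 to 8 over time and 2 to 4 for the clone level. Over time the counts were 1 without a filter, 1 with the mean of probe sets, 1 without a trend, 3 with phase means and 0 in c8 alone. Late against early gave 4 in c6 alone and 6 without the pair of arrays. The clone level gave 1 with phase means and 5 without that pair. No named result changed direction as a called value. With 2 start arrays, every comparison with the start rests on 1 array per clone, and dim probe sets limit the H3 and H4 genes. The cause of these shifts was not tested. Without the shares of all genes beside them, these counts are not read as particular to histone genes.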

Other observations

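CENPA, the H3 variant that marks centromeres, lies outside the symbol rule. It measured 135, 237, 276, 246, 71.2, 155, 164, 132 and 114 in c6, in order of time. In c8 it measured 157, 137, 168, 95.5, 115, 119.5, 131 and 147. Its loader HJURP measured 365, 454, 480.0, 384, 115, 268, 287.5, 239 and 313 in c6 and 215, 268, 288, 121.5, 167, 226, 237 and 198 in c8. Both were lowest at time 24 of c6 and at time 12 of c8, and neither passed late against start (CENPA -0.05 ± 0.26, limma adjusted p = 0.950; HJURP -0.21 ± 0.25, adjusted p = 0.732).

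A probe set that lists 14 H4 genes, and so names none of them, was at 4663 and 5752 at the start and between 1503 and 7174 on the late arrays, with overlap. Its mean late change was -0.56 on the log2 scale. Another set listing 14 H4 genes was at 85.9 to 156.1 late, with a change of -0.23. Dimmer ones had -0.30, -0.04 and 0.09. None of these changes was tested.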
